A study of Mus musculus with 6 samples.

Results

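Genes that mark or serve regulatory T cells were followed in tumours of CT2A, a mouse glioma line. They were Foxp3, Il2ra, Ikzf2, Ikzf4, Lrrc32, Icos and Il10. These 7 were chosen by symbol, as lineage factors, receptors and the cytokine Il10, and all 7 of 7 were among the 55291 gene symbols of the count table. The labels call the tissue a subcutaneous tumour but the source brain; the tissue entry was followed. They give the genotype of 3 libraries as Siglece knockout (KO) and of 3 as wild type (WT). Siglece encodes Siglec-E, an inhibitory sialic acid receptor of mouse myeloid cells. The labels give no age, sex, treatment or time for either group, and state neither the allele nor whether host cells, tumour cells or both lack the gene. Libraries were made by Smart-seq2, a full-length cDNA method, from 5000 to 20000 cells each, which the labels call CT2A cells without naming a sort. Whether each library is a separate animal is not stated, and p-values cover the spread among these 6 samples, part of which may be technical. Values of a group are listed below in the order of its replicates 1, 2 and 3.

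Regulatory T cells restrain other immune cells and help tumours escape rejection. Foxp3 is the transcription factor that defines them, and Ikzf2 (Helios) and Ikzf4 (Eos) are zinc finger factors that work beside it. The cells take up interleukin 2 through the high-affinity receptor chain Il2ra (CD25), display latent TGF-beta on the anchor protein Lrrc32 (GARP), receive co-stimulation through Icos and can release the inhibitory cytokine Il10. None of these genes belongs to regulatory T cells alone: activated T cells carry Il2ra and Icos, platelets and vessel cells carry Lrrc32, and macrophages make Il10. The genes were therefore also set against Cd3e, a chain of the T cell receptor complex, and Cd4, the co-receptor of helper and regulatory T cells.

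The libraries held 24369359 to 40574093 counts. Levels are CPM, counts scaled to library sizes that TMM had corrected for differences in RNA composition. A gene with 0 counts could have a level of up to 0.0820 to 0.150 CPM, depending on the library (3 counts). Siglece counts were 0, 8 and 0 for KO and 74, 99 and 64 for WT. Mitochondrially encoded genes took 1.92, 2.11 and 4.40% of the counts of the KO libraries and 0.717, 1.13 and 1.11% of those of the WT libraries. The summed level of 8 glioma and neural markers was 82.1, 621 and 64.8 CPM for KO and ranged from 835 to 847 CPM for WT, and Gfap was at 0 counts in KO replicate 3. KO replicate 2 thus stood nearer to the WT libraries than the other KO libraries did. Over the tested genes it was nearer to each WT library than to the other KO libraries. The chi-square per degree of freedom between its counts and theirs was 312.9, 105 and 110.3 for WT replicates 1, 2 and 3. For KO replicates 1 and 3 it was 341.5 and 459.4. Of the 15 T cell markers 13 were higher in KO (edgeR, adjusted p under 0.05), beside 11.2% of all tested genes. The summed level of the 15 ranged from 318 to 1016 CPM (KO) and from 112 to 181.5 CPM (WT). The level of Cd3e was 65.5, 20.7 and 57.1 CPM for KO against 6.34, 6.38 and 5.33 CPM for WT. That of Cd4 was 61.0, 16.5 and 38.6 CPM for KO against 6.04, 4.07 and 4.20 CPM for WT. In bulk tissue, more cells of a type and more RNA per cell cannot be told apart.

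Il2ra, Lrrc32 and Icos, 3 of the 7 genes, rose in the KO tumours, and 0 were lower (quasi-likelihood test of edgeR, Benjamini-Hochberg adjusted p under 0.05; 0 lower also at an unadjusted p under 0.05, with DESeq2 and with limma-voom). Across all 18621 genes tested, edgeR called 11.2% higher and 0.226% lower, DESeq2 called 17.9% higher and 6.83% lower, and limma-voom called 0.166% lower. For 5 of the 7, the former 3 with Ikzf2 and Il10, each KO library lay above each WT library, as it did for 24.6% of all genes. The median log2 fold change of the 7 was 2.34 and that of all tested genes was -0.05. The groups of Foxp3 and Ikzf4 overlapped. The count of 3 rested on the set of libraries: edgeR called 0 of the 7, and 0% of all genes, when any WT library or KO replicate 1 was left out. With all libraries, 5 of the 7 and 5919 of the 18621 genes tested had an unadjusted p under 0.05 with edgeR. Without KO replicate 1 these were 4 of the 7 and 3461 of 19380 genes. DESeq2 then called 3 of the 7 (10.7% of all genes higher). Without WT replicate 1 the 2 counts of the 7 were 5 and 5 (DESeq2: 14.6% of all genes higher). Without WT replicate 2 they were 5 and 3 (12.9%), and without WT replicate 3 they were 5 and 3 (12.2%). Without KO replicate 2, edgeR called 5 of the 7 and 22.7% of all genes higher.

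**Figure D1:**
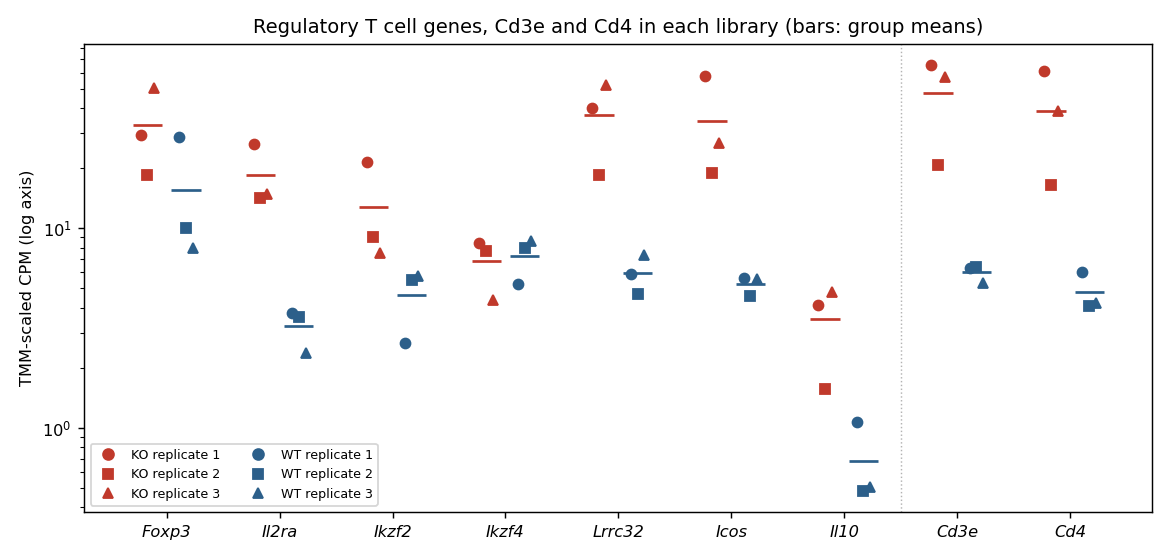
TMM-scaled CPM (log axis) of the 7 regulatory T cell genes, Cd3e and Cd4 in each of the 3 KO (red) and 3 WT (blue) libraries; horizontal bars are group means and symbols give the replicate. Il2ra, Lrrc32 and Icos lie higher in each KO library, whereas WT replicate 1 holds Foxp3 at 28.7 CPM, beside KO replicate 1 at 29.4 CPM.

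Foxp3 (ENSMUSG00000039521.13) lies on the plus strand of chromosome X at 7573644 to 7595245 (mm10). Its level was 29.4, 18.5 and 50.4 CPM for KO against 28.7, 10.03 and 7.92 CPM for WT. The group means were 32.75 ± 16.2 and 15.6 ± 11.5 CPM (SD, n = 3 each). WT replicate 1 stood among the KO libraries, above KO replicate 2. The log2 fold change was 1.07 (SE 0.57) and did not pass the threshold (adjusted p = 0.222, edgeR). Without WT replicate 1 it was 1.85 (adjusted p = 0.118, edgeR) or 1.77 (adjusted p = 0.00871, DESeq2), and without both that library and KO replicate 2 it was 2.13 (adjusted p = 0.0103, edgeR). That pair, through which the Foxp3 groups overlapped, was chosen after the values were seen, so this p is no independent test. Without the pair, edgeR called 24.6% of all genes higher. Without KO replicate 3 the log2 fold change of Foxp3 was 0.58, and over all alternatives its adjusted p ranged from 0.00871 to 0.541.

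Foxp3 shares exon sequence with its neighbours more than any of the other genes followed here. Of its 4577 exon bases, 1443 (31.5%) are also exons of another gene in the table, against 1.24% for Ikzf2, 0.573% for Ikzf4 and 0 bases for Il2ra, Lrrc32, Icos and Il10. Of the T cell genes, Cd3e shares 3.31% and Cd4 shares 0 bases. Smart-seq2 does not mark strand, and no source used here says how reads in shared bases were assigned. At its 5′ end 853 bases are shared with Flicr, a non-coding RNA on the same strand, and 266 with Ppp1r3f on the minus strand. At its 3′ end 590 bases between 7593809 and 7595055 are shared with Ccdc22, a protein-coding gene on the minus strand, and 373 with Gm36995, a non-coding transcript on the minus strand.

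These neighbours did not all follow the same pattern. Flicr counts were 9, 13 and 0 for KO and 1, 27 and 7 for WT, so that it was at 0 and 1 counts in the 2 libraries in which Foxp3 had its highest counts within each group, 1010 and 1052. Ccdc22, at 41.7, 34.5 and 75.6 CPM for KO against 55.5, 30.1 and 28.2 CPM for WT, was highest in KO replicate 3 and WT replicate 1, as was Foxp3 within each group. Gm36995, at 39.0, 33.4 and 41.1 CPM for KO against 40.5, 30.5 and 29.3 CPM for WT, had the same order of libraries within each group as Foxp3, over a narrower range. Ppp1r3f lay between 4.86 and 7.62 CPM throughout and was highest in KO replicate 1 and WT replicate 3. In a comparison chosen after the values were seen, there were 70.5, 53.7 and 66.6 Foxp3 counts per 100 Ccdc22 counts in KO and 51.8, 33.3 and 28.1 in WT. The groups of this ratio did not overlap, and KO replicate 2 and WT replicate 1 lay side by side. How many of all genes separate in this way relative to Ccdc22 was not counted. In CPM, each KO library lay above each WT library for 24.6% of all genes. The part of the neighbours' reads in the Foxp3 values was not tested.

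**Figure D2:**
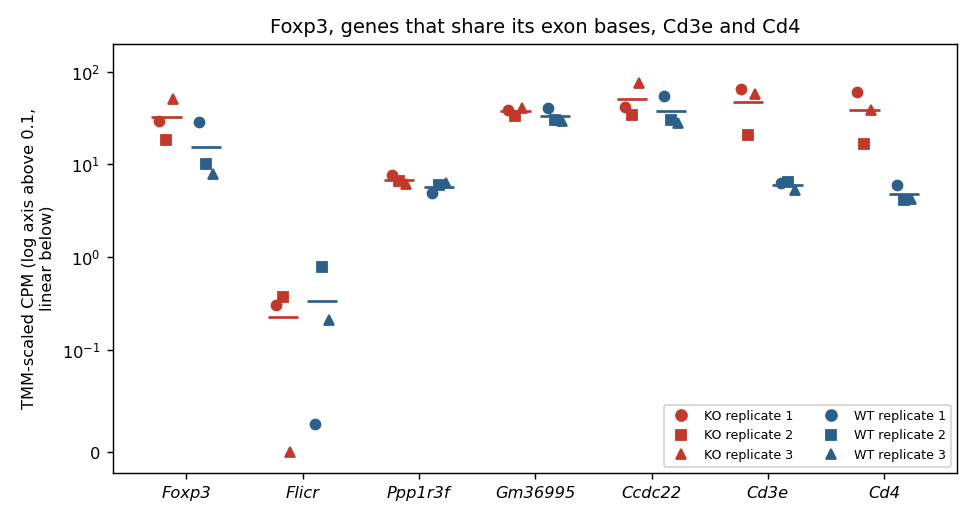
TMM-scaled CPM of Foxp3, of the 4 genes that share exon bases with it, and of Cd3e and Cd4, in each KO (red) and WT (blue) library, on an axis that is logarithmic above 0.1 and linear below; bars are group means. WT replicate 1 stands apart from the other WT libraries for Foxp3 (28.7 CPM) and Ccdc22 (55.5 CPM) but not for Cd3e (6.34 CPM). T cell markers not drawn differed in this. In WT replicates 1, 2 and 3 Cd3d was at 14.3, 6.495 and 4.315 CPM and Cd3g at 19.8, 8.29 and 7.05 CPM. Cd247 went the other way, at 5.19, 12.2 and 13.1 CPM.

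The start regions of Foxp3 and of Il2ra are shown because both genes are textbook markers of the cell type, of which Il2ra passed the test and Foxp3 did not. RefSeq (GRCm38.p6) gave windows from 250 bases before to 50 bases after a start site for 2 of the 7 genes, 2 for Foxp3 and 1 for Il2ra. They lie at chrX:7579426-7579725, chrX:7580233-7580532 and chr2:11642542-11642841, each on the plus strand, and both Foxp3 windows lie inside the span of Flicr. Capitals mark matches, on either strand, to the letters of 5 motifs: TGTTTAC (forkhead), TTCNNNGAA (STAT), TGTGGT (Runx), GGAAAA (NFAT) and TGACGTCA (CRE).
Foxp3 window 1: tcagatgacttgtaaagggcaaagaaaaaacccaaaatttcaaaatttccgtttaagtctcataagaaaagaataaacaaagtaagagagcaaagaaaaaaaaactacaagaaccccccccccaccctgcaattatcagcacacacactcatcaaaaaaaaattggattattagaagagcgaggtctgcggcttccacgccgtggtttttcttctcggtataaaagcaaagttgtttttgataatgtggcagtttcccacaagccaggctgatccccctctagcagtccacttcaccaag
Foxp3 window 2: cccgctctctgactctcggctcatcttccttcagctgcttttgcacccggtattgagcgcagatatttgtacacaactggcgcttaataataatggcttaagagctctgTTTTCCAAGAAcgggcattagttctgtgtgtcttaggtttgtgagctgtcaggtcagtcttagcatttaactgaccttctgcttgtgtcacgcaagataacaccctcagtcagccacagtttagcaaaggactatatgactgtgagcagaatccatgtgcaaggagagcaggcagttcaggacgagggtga
Il2ra: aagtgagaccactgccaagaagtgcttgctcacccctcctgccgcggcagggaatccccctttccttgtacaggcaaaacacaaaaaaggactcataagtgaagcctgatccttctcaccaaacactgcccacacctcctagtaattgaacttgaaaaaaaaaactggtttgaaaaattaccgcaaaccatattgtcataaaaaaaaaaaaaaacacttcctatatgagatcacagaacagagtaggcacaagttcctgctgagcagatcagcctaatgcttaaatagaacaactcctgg
The second Foxp3 window held a STAT match and, overlapping it, an NFAT match on the minus strand, in the single run in capitals. The first Foxp3 window and the Il2ra window held none of the 5. Of 32851 windows of this length, 8.30% held the STAT letters, 23.4% the NFAT letters, 16.8% the Runx letters, 3.65% the forkhead letters and 1.79% the CRE letters. These matches describe the letters only.

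Of the partner factors, neither Ikzf2 nor Ikzf4 passed the test. Ikzf2 (Helios; chromosome 1, 69531214 to 69687245, minus strand) stood at 21.6, 9.001 and 7.53 CPM for KO against 2.65, 5.53 and 5.77 CPM for WT. The KO libraries were all higher, but KO replicate 1 stood far above the others and the gap between KO replicate 3 and WT replicate 3 was small. Its log2 fold change of 1.45 (SE 0.53) did not pass (adjusted p = 0.113, edgeR), was 0.78 without KO replicate 1 and passed without KO replicate 2 (adjusted p = 0.0482). With DESeq2 it passed without KO replicate 2 (adjusted p = 0.0218) and without KO replicate 3 (adjusted p = 0.0225). Its adjusted p ranged from 0.0218 to 0.413 over the alternatives.

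Ikzf4 (Eos; chromosome 10, 128630843 to 128669358, minus strand) stood at 8.47, 7.72 and 4.39 CPM for KO against 5.27, 7.95 and 8.66 CPM for WT. The groups overlapped throughout, and the lowest value was that of KO replicate 3. Its log2 fold change of -0.09 (SE 0.41) did not pass (adjusted p = 0.891, edgeR). Its sign changed without KO replicate 3 (0.13) and without WT replicate 3 (0.03).

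The surface receptors Il2ra and Icos were both higher in KO tumours. Il2ra (ENSMUSG00000026770.5; chromosome 2, 11642807 to 11693193, plus strand) stood at 26.3, 14.2 and 14.8 CPM for KO against 3.74, 3.59 and 2.38 CPM for WT. The lowest KO library was well above the highest WT library. Group means were 18.4 ± 6.84 and 3.24 ± 0.746 CPM (SD, n = 3), a log2 fold change of 2.51 (SE 0.40, adjusted p = 0.0246, edgeR).

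Icos (chromosome 1, 60977927 to 61000320, plus strand) stood at 58.0, 18.8 and 26.7 CPM for KO against 5.63, 4.56 and 5.57 CPM for WT. The WT libraries were close together, and KO replicate 1 was the highest. It rose by a log2 fold change of 2.71 (SE 0.46), with an adjusted p of 0.0246 (edgeR), or by 2.05 without KO replicate 1.

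Lrrc32 (GARP; chromosome 7, 98489283 to 98502181, plus strand) stood at 40.0, 18.6 and 52.2 CPM for KO against 5.90, 4.70 and 7.35 CPM for WT. In contrast to Il2ra and Icos, its highest library was KO replicate 3. It rose by a log2 fold change of 2.62 (SE 0.43), with an adjusted p of 0.0246 (edgeR). Of 7 endothelial markers 6 were higher in KO, beside 11.2% of all tested genes, and Emcn did not pass (adjusted p = 0.0511, edgeR). The summed level of the 7, also highest in KO replicate 3, was 454, 296.5 and 932 CPM for KO and ranged from 60.7 to 92.8 CPM for WT. Kdr was higher in KO but was not highest in KO replicate 3. It stood at 55.1, 57.1 and 49.3 CPM for KO and 7.62, 16.6 and 13.7 CPM for WT. Of 6 megakaryocyte and platelet markers 3 were tested with edgeR and 0 called; 1, Pf4, had an unadjusted p under 0.05 (adjusted p = 0.0572). The summed level of the 6 was 80.7, 49.7 and 340.2 CPM for KO, and it ranged from 18.4 to 37.1 CPM for WT. Pf4 had 6535 counts in KO replicate 3, while Gp9 had at most 3 counts in any library. The part of these cells in the Lrrc32 values was not tested.

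Il10 (chromosome 1, 131019845 to 131024974, plus strand) was the least abundant of the genes in CPM. Its counts were 121, 55 and 96 for KO and 39, 17 and 17 for WT. Scaled, its level was 4.12, 1.57 and 4.79 CPM for KO against 1.07, 0.484 and 0.506 CPM for WT. Each KO library was above each WT library, though KO replicate 2 was near WT replicate 1. The log2 fold change of 2.34 (SE 0.64) did not pass the threshold (adjusted p = 0.0539, edgeR). It passed with DESeq2 (adjusted p = 0.00422), with no low-count filter (0.0389), with a filter of at least 1 CPM in 3 libraries (0.0471) and without KO replicate 2 (0.00911), and did not with limma-voom (0.0764). Over all alternatives its adjusted p ranged from 5.23e-05 to 0.198. Of 7 macrophage markers 6 were higher in KO, beside 11.2% of all tested genes. The summed level of the 7 was 7193, 2381 and 8058 CPM for KO against 1678, 1072 and 973 CPM for WT. That is the same order from library to library as Il10 except in WT replicates 2 and 3. The part of macrophages in the Il10 values was not tested.

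Per kilobase of exon, the order of the levels was not the same in both groups. In KO tumours Icos led at 10.1 ± 6.05 CPM per kilobase (SD, n = 3), followed by Lrrc32 at 7.88 ± 3.63, Foxp3 at 7.16 ± 3.54, Il2ra at 3.23 ± 1.20, Il10 at 2.66 ± 1.297, Ikzf2 at 1.09 ± 0.664 and Ikzf4 at 1.06 ± 0.336. Only the steps from Foxp3 to Il2ra and from Il10 to Ikzf2 exceeded the SD of the upper gene. In WT tumours Foxp3 led at 3.40 ± 2.51 CPM per kilobase, then Icos at 1.53 ± 0.175, Lrrc32 at 1.28 ± 0.283, Ikzf4 at 1.13 ± 0.276, Il2ra at 0.567 ± 0.131, Il10 at 0.523 ± 0.252 and Ikzf2 at 0.400 ± 0.150. There the steps from Icos to Lrrc32 and from Ikzf4 to Il2ra exceeded the SD of the upper gene.

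Set against Cd3e, the levels of Il2ra, Lrrc32 and Icos overlapped between the genotypes, whereas those of Foxp3 and Ikzf4 were lower in each KO library than in each WT library. The latter held for 83.5% of all tested genes, whose median log2 difference relative to Cd3e was -2.87. No difference of a ratio passed the permutation test after adjustment, which 3 against 3 libraries cannot reach. The per-kilobase level of Icos was 105, 108 and 55.6% of that of Cd3e for KO and 106, 85.0 and 124% for WT. Lrrc32 stood at 53.2, 78.3 and 79.6% in KO and 81.0, 64.1 and 120% in WT, and Il2ra at 28.7, 49.2 and 18.5% in KO and 42.2, 40.2 and 31.9% in WT. For these 3 genes the ranges overlapped. The log2 ratio to Cd3e, KO minus WT, was -0.35 for Il2ra (exact two-sided permutation p = 0.6), -0.30 for Lrrc32 (exact permutation p = 0.4) and -0.27 for Icos (exact permutation p = 0.6). A p of this size does not show equal ratios: with library sizes set to the Cd3e counts, edgeR gave SEs of 0.58, 0.53 and 0.54 for them.

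Foxp3 stood at 40.0, 79.9 and 78.6% of Cd3e for KO and at 404, 140 and 132.5% for WT. In each WT library its level per kilobase was therefore above that of Cd3e, a gene of all T cells. The 95% counting intervals (Clopper-Pearson) were 36.9 to 43.4, 71.8 to 89.0 and 72.2 to 85.65% in KO and 350 to 468, 118 to 166 and 109 to 161% in WT, so counting error did not bridge the groups. The difference in log2 ratio was -1.63 (exact two-sided permutation p = 0.1, the smallest that 3 against 3 libraries allow; 0.5 after Benjamini-Hochberg adjustment over 35 ratios). Relative to Cd4, Foxp3 stood at 42.5, 98.9 and 115% in KO and 419, 217 and 166% in WT, a difference of -1.65. Of all tested genes, 81.7% lay lower relative to Cd4 in each KO library, with a median difference of -2.89, so that the Foxp3 differences were smaller in size than both medians. The standing of Foxp3 in WT depends on the T cell gene chosen. Foxp3 averaged 3.40 ± 2.51 CPM per kilobase there (SD, n = 3) and Cd3e 1.47 ± 0.146. Other chains of the complex averaged 4.62 ± 2.91 (Cd3d), 3.58 ± 2.15 (Cd3g) and 1.905 ± 0.8105 (Cd247). Ratios of Foxp3 to these other chains were not computed.

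Ikzf4 stood at 8.17, 23.6 and 4.85% of Cd3e in KO and 52.5, 78.65 and 103% in WT, a log2 difference of -2.94 (exact permutation p = 0.1). That was close to the median of all tested genes relative to Cd3e, -2.87. Ikzf2 stood at 11.6, 15.3 and 4.63% in KO and 14.7, 30.4 and 38.1% in WT (difference -1.46, exact permutation p = 0.2), and its groups overlapped through KO replicate 2 and WT replicate 1. Il10 was at 19.6, 23.6 and 26.1% of Cd3e in KO and 52.4, 23.6 and 29.6% in WT (difference -0.56, exact permutation p = 0.2). Cd3e itself was higher in KO, by a log2 fold change of 2.99. With library sizes set to the Cd3e counts, edgeR called Foxp3 (-1.77, SE 0.64, adjusted p = 0.0288) and Ikzf4 (-2.68, SE 0.72, adjusted p = 0.0103) lower, along with 76.6% of all genes. With the Cd4 counts it called the same 2 of the 7 (adjusted p = 0.0386 and 0.00820) and 76.9% of all genes.

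**Figure D3:**
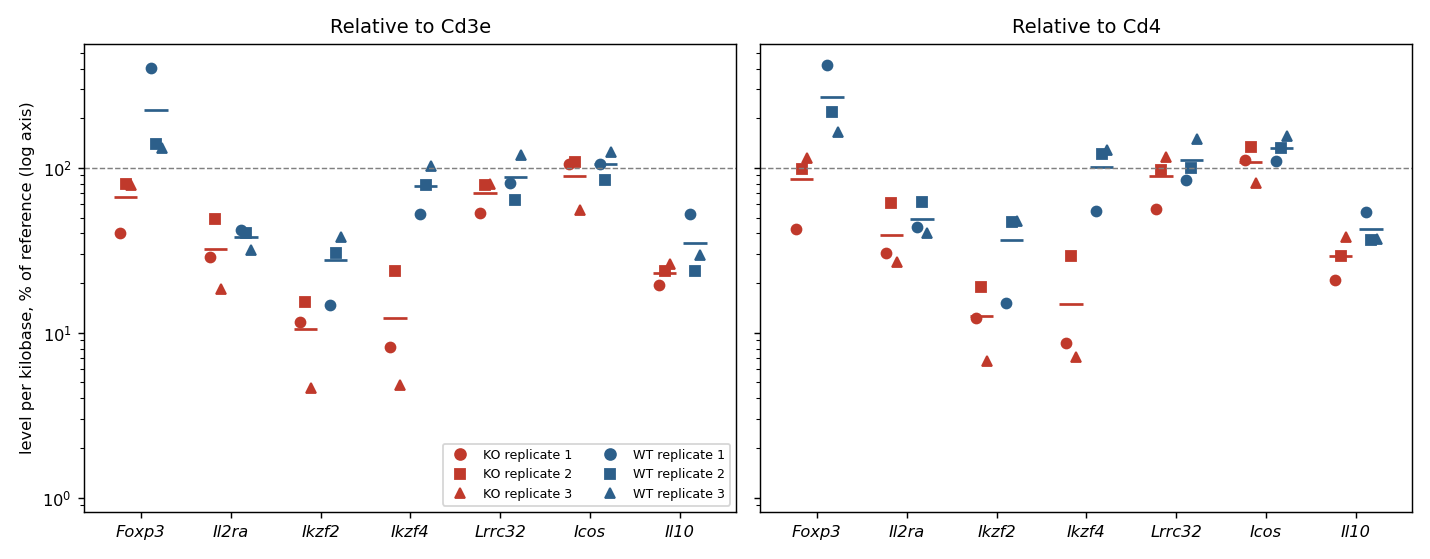
Level per kilobase of each of the 7 genes as a percentage of Cd3e (left) and of Cd4 (right) in the same library, on a log axis, for 3 KO (red) and 3 WT (blue) libraries; bars are group means and the dashed line marks equal levels. Foxp3 lies above the line relative to Cd3e in the 3 WT libraries (132.5 to 404%) and below it in the 3 KO libraries (40.0 to 79.9%), while Il2ra, Lrrc32 and Icos overlap.

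Relative to Cd8a, the co-receptor of cytotoxic T cells, the log2 difference was -0.98 for Foxp3 and 0.30, 0.35 and 0.38 for Il2ra, Lrrc32 and Icos, with overlapping groups for these 4. Relative to Ptprc (CD45), carried by all leukocytes, it was -0.75 for Foxp3 and 0.53, 0.58 and 0.61 for the same 3 genes, again with overlap. These values for Il2ra, Lrrc32 and Icos have the opposite sign to those relative to Cd3e. Il10 differed from Csf1r, the macrophage growth factor receptor, by 0.04 (exact permutation p = 0.9), and stood at 2.95 ± 0.749% of Csf1r per kilobase in KO and 2.91 ± 1.20% in WT. Ikzf4 was below WT in each KO library against each of the 5 reference genes. So were 74.6% of all tested genes relative to Cd8a, 71.5% relative to Ptprc and 75.2% relative to Csf1r, each of which was itself higher in KO. The adjusted p over the 35 ratios was at least 0.5.

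The similarity of patterns over the 6 libraries was described by the root mean square difference between log2 CPM profiles, each centred on its own mean. Il2ra and Icos were 0.338 apart, and Icos and Cd4 0.295, which placed Cd4 at rank 102 of 18620 other tested genes by likeness to Icos. The macrophage gene Csf1r stood beside it at rank 101 (0.295). Il2ra was 0.395 from Csf1r, 0.454 from Cd4 and 0.462 from Cd3e, and Lrrc32 was 0.357 from Cd3e and 0.372 from Csf1r. Foxp3 was 0.924, 0.920 and 1.02 from Il2ra, Lrrc32 and Icos and 1.02 from Cd3e, which ranked 8408 of 18620 by likeness to it. It was nearer to Il10 (0.595, rank 1566) and to its neighbour Ccdc22 (0.488, rank 730). Among genes with a mean log2 CPM of at least 1, the 3 closest to Foxp3 were Nnmt (0.152), an enzyme that methylates nicotinamide, Vamp5 (0.168), a vesicle protein, and Ccdc12 (0.175). Those closest to Il2ra were Chst15, Fhl2 and Ptx3 (0.116 to 0.178), to Icos Sdk1, C1s1 and Dkk3 (0.0749 to 0.127), to Lrrc32 Klrc1, Creb3l1 and B3gnt3 (0.149 to 0.163). Those closest to Il10 were Acp5, Clec2d and Tmem176b (0.0533 to 0.123), to Ikzf2 Dock8, Pawr and Pde7b (0.0990 to 0.205), and to Ikzf4 Cldnd1, Trrap and Mbd4 (0.0434 to 0.0630).

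The wider programme of regulatory T cells was read from 6 lists with 80 distinct genes, of which 77 were tested. In KO tumours edgeR called 33 higher and 0 lower, beside 11.2% and 0.226% of all tested genes. At an unadjusted p under 0.05, 4 were lower, as were 1782 of all 18621 genes. DESeq2 called 2 lower (6.83% of all genes) and limma-voom 0 (0.166%). The median log2 fold change of the 77 was 1.54, and that of all tested genes was -0.05. The count higher was 50 with DESeq2 (17.9% of all genes). With edgeR it was 22 without KO replicate 3 (4.85% of all genes) and 56 without KO replicate 2 (22.7%). Without KO replicate 1 or any 1 of the WT libraries, edgeR called 0 of them and 0% of all genes. There, 45 to 52 had an unadjusted p under 0.05 in either direction, and DESeq2 called 28 to 37 (10.7 to 14.6% of all genes higher). Of 19 partner and lineage transcription factors 9 were higher, led by Satb1, a chromatin organiser (log2 fold change 3.31, SE 0.46), Ikzf1 (Ikaros; 2.45, SE 0.39), Irf4 (2.96, SE 0.50) and Ikzf3 (Aiolos; 2.40, SE 0.45), each at an adjusted p of 0.0246. Runx1 and Cbfb, which bind DNA together, did not pass (0.95 and -0.02). Nr4a1, an early response factor of T cell receptor signals and of other cells, was at 61.6 ± 55.6 CPM for KO and 191 ± 8.43 CPM for WT (adjusted p = 0.112, edgeR). Its KO values were 35.5, 125 and 23.8 CPM, the same order of libraries as the summed glioma and neural markers (82.1, 621 and 64.8 CPM). The part of tumour cells in the Nr4a1 values was not tested.

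Of 8 tested genes of interleukin 2 signalling 4 were higher: Jak3 (2.33, SE 0.37), the shared gamma chain Il2rg (2.48, SE 0.41), the beta chain Il2rb (2.24, SE 0.40) and the target gene Cish (1.66, SE 0.32). Stat5a and Stat5b did not pass (adjusted p = 0.138 and 0.125, edgeR), and the cytokine Il2 itself was too low to test, at 0.377 ± 0.112 CPM for KO and 0.102 ± 0.102 CPM for WT. Of 13 genes around GARP and TGF-beta activation 2 were higher, a share not far from the 11.2% of all tested genes. They were Nrros (2.72, SE 0.45), which anchors latent TGF-beta on myeloid cells, and Tgfb1 (2.26, SE 0.44). Furin, which cleaves the TGF-beta precursor, and the receptor chain Tgfbr2 had log2 fold changes of 1.10 and 1.25 and did not pass (adjusted p = 0.0747 and 0.0764, edgeR). Itgb8, an integrin chain that frees TGF-beta, was at 2.93 ± 2.54 CPM for KO and 11.4 ± 4.70 CPM for WT (adjusted p = 0.0934, edgeR). Among the KO libraries it was highest in KO replicate 2 (5.87 CPM), as were the summed glioma and neural markers.

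Of 7 genes of ICOS and CD28 co-stimulation 5 were higher, led by the inhibitory receptor Ctla4 (2.53, SE 0.43), the lipid kinase subunit Pik3cd (2.27, SE 0.43), the ligand Cd80 (2.11, SE 0.40) and Cd28 (3.05, SE 0.61). The ICOS ligand Icosl was at 23.98 ± 13.4 CPM for KO and 8.82 ± 1.18 CPM for WT and did not pass (adjusted p = 0.0660, edgeR). Of 10 genes of interleukin 10 production and signalling 4 were higher: Prdm1 (Blimp-1; 1.72, SE 0.26), Maf (3.12, SE 0.52) and the receptor chains Il10ra (2.38, SE 0.45) and Il10rb (2.40, SE 0.48). Stat3, which carries the signal, stood at 265 ± 7.73 CPM for KO and 258 ± 10.7 CPM for WT, and its target Socs3 at 93.9 ± 22.6 and 124.5 ± 19.1 CPM.

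Of 20 tested surface and effector genes of regulatory T cells 9 were higher. They were led by Entpd1 (CD39), which breaks down extracellular ATP (2.37, SE 0.38), Il1rl1, the interleukin 33 receptor (2.91, SE 0.48), Tnfrsf1b (2.79, SE 0.46) and the folate receptor family gene Izumo1r (2.59, SE 0.58). Entpd1 and Tnfrsf1b are also carried by myeloid cells. Izumo1r was low, at 5.11 ± 2.68 CPM for KO and 0.847 ± 0.323 CPM for WT. The other 11 did not pass. Among them Areg lay lower in each KO library than in each WT library (-1.84, SE 0.79, adjusted p = 0.154, edgeR). It was low too, at 0.717 ± 0.553 CPM for KO and 2.61 ± 0.610 CPM for WT. Tnfrsf9, Nt5e and Capg had log2 fold changes of 0.07, 0.25 and 0.31.

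**Figure D4:**
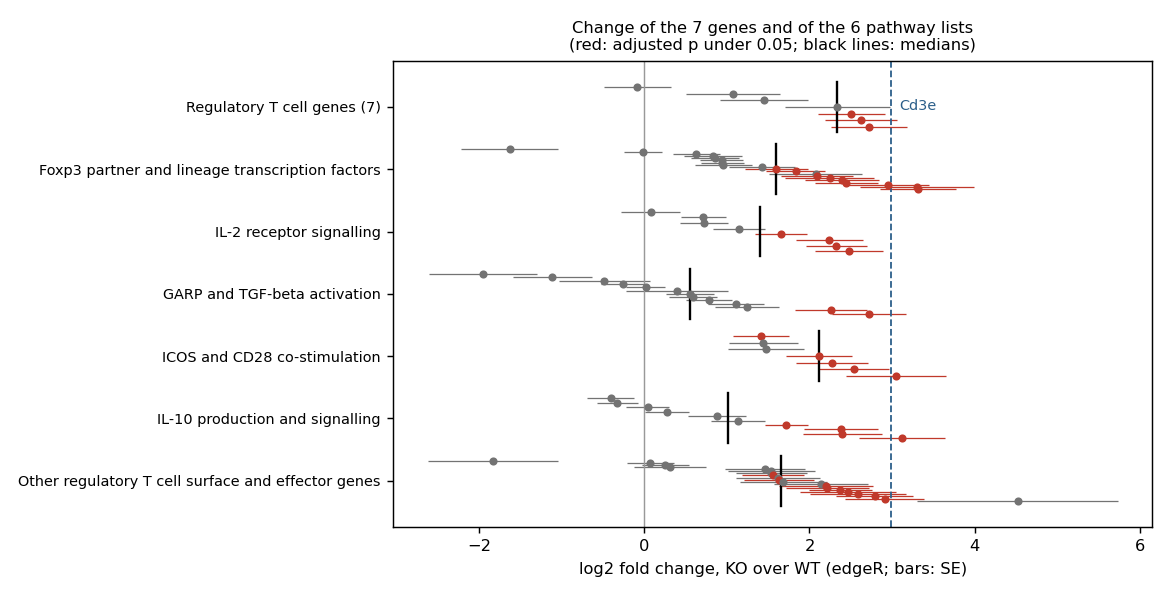
Log2 fold change of KO over WT with its SE for the 7 genes (top row) and the tested genes of the 6 pathway lists; red marks an adjusted p under 0.05, black lines the median of each row and the dashed line Cd3e (2.99). Foxp3, Ikzf2 and Ikzf4 lie at 1.07, 1.45 and -0.09, left of Il10 and the 3 called genes at 2.34 to 2.71, and no gene in any row is called lower.

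Markers of other cell types that could carry these genes moved as well. Each count of higher markers stands beside the 11.2% of all tested genes that edgeR called higher. Of 5 fibroblast markers 5 were higher, with a summed level of 9294 to 27490 CPM for KO and 1629 to 2611 CPM for WT, and of 6 dendritic cell markers 3 were (24.2 to 79.3 and 11.1 to 18.8 CPM). Of 5 NK cell markers 2 were higher (32.2 to 65.0 and 9.40 to 20.2 CPM). Of 5 B cell markers, 4 were tested and 1, Cd79b, was higher. The sums of the 5, 11.4 to 20.9 CPM for KO and 7.40 to 11.5 CPM for WT, overlapped. That overlap rested on Pax5, which made up most of the WT sums. Pax5 stood at 0.578, 7.01 and 1.35 CPM for KO and 4.70, 8.97 and 9.46 CPM for WT. Of 5 markers of group 2 innate lymphoid cells, which carry Il2ra and Icos, 3 were tested. The 2 higher ones were Gata3 and Il1rl1, both also T cell genes. Rora did not pass, at 30.6, 35.4 and 36.1 CPM for KO and 34.3, 60.1 and 58.2 CPM for WT. Rora made up most of the WT sums of this list. The overlap of those sums, 39.9 to 69.7 CPM, with the KO sums, 67.2 to 95.3 CPM, rested on it. The defining cytokines of group 2 innate lymphoid cells were low: Il5 had 0 to 17 counts and Il13 0 to 49 counts per library. Of 8 glioma and neural markers 0 were higher and 1, Slc1a3, was lower. The part of these cell types in the values of the 7 genes was not tested.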

How the data were processed

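Raw read counts by gene symbol, 1 column for each library, were deposited by the authors beside each gene's exon coordinates and summed exon length, the columns that featureCounts writes, per the file headers. The submitters' processing notes name the build mm10 and the tool DESeq2; aligner, annotation release and strand setting are not given in the sources used. Columns were matched to samples by the library tag, and replicate numbers follow accession order and only name a library. KO and WT were compared by quasi-likelihood F tests in edgeR 4.0.16, run in R 4.3.3 (group as the only term, TMM scaling, filterByExpr with its defaults, Benjamini-Hochberg adjustment over 18621 genes, threshold 0.05). Each SE was approximated from the fold change and its F statistic (log2 size over root F). The 7 genes were part of that fit and all passed its filter. Ratios used counts per kilobase with 0.5 added to each count and an exact two-sided permutation test; intervals (95%) and the limit of 3 counts cover counting error only. DESeq2 1.42.0, limma-voom (limma 3.58.1), other scalings and filters and left-out libraries were alternatives. Named genes were the 7 genes, 5 reference genes, up to 4 genes per pathway list by smallest p, 3 genes per profile, and genes of a known role beside them chosen after their values were seen. The 7 genes, the 6 pathway lists and the 10 marker lists were chosen with earlier results of these data known. Gene identifiers and overlaps used GENCODE M21, in which 6 of the 7 genes have the same span as in the table. No 2 libraries agreed within sampling noise (closest pair: chi-square of 11.2 per degree of freedom). In counts simulated for this comparison over 18107 genes, edgeR recovered 36.8% of 95 genes changed 4-fold and 91.8% of 98 changed 16-fold.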

Additional observations from a re-analysis of the deposited data

How the results depend on the processing

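No paired analysis was possible because the labels carry no replicate numbers shared between KO and WT. The 7 genes called higher in KO numbered 3 and went from 0 to 5 when 1 library was left out (edgeR and DESeq2), and were 5 without both KO replicate 2 and WT replicate 1. The 33 pathway genes called higher became 50 with DESeq2, 0 to 56 with 1 library left out and 55 without that pair. The 2125 genes called in all became 3356 with no low-count filter, 4510 with DESeq2, 1019 with limma-voom, 0 to 9351 with 1 library left out and 8809 without the pair; the 8078 calls without KO replicate 2 are within that range. Of the calls, 98.0% were higher in KO with edgeR, 72.4% with DESeq2 and 55.1% with edgeR without KO replicate 2. Leaving out the pair and DESeq2 with a library left out were chosen after seeing the data. With 1 library left out Ikzf4 went from -0.31 to 0.13 with edgeR (lowest with DESeq2 -0.36) and changed sign without KO replicate 3 (0.13 with edgeR, 0.12 with DESeq2) and without WT replicate 3 (0.03). With the libraries complete, each of Il2ra, Lrrc32 and Icos stayed past the threshold in the 7 other settings. The Foxp3 to Cd3e difference went from -1.91 to -1.11 and moved by less than 1 SD in each setting. Omitting composition scaling shifted the median log2 fold change by -0.13. In the lowest libraries Il10 rested on 17 counts.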
